A study of Drosophila melanogaster with 2 samples.

Results

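The peaks described here were called in the second biological replicate of a chromatin immunoprecipitation sequencing (ChIP-seq) experiment and had no counterpart in the thresholded peak list of the first. They were chosen by position: each is a row of the thresholded peak list of replicate 2, on the chromosome arms 2L, 2R, 3L, 3R, 4 or X, that shared no base with any row of the thresholded list of replicate 1. There were 731 such peaks among 2128 on these 6 arms (34.4%), and the other 1397 shared at least 1 base with a replicate 1 peak. Because that overlap was the rule, the share is a description and was not tested. Both samples came from whole Drosophila melanogaster embryos, 0 to 24 h old, with a transgene for CG10321 fused to eGFP, an enhanced green fluorescent protein, and chromatin sonicated to 200 to 800 bp was precipitated with an antibody against GFP. They form 1 group of 2 samples, with no second genotype, stage or treatment, and a control experiment that the labels name as possible was not analysed here. Whole embryos mix all cell types, peak lists carry no expression values with which to check tissue markers, and the promoter that drives the transgene is not given in the labels. The lists hold no read counts, so the depth of either library is unknown, and with 1 library a side no comparison of conditions or test over samples was possible. Shares are given with Wilson 95% intervals, which cover counting error over peaks only. Neighbouring peaks are not independent: 99 of the 731 overlapped another of the 731, and joining these left 681 separate stretches.

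CG10321 encodes a zinc finger protein of the C2H2 type, in which each finger folds around a zinc ion held by cysteines and histidines and can contact a few bases of DNA. The annotated coding sequence holds 5 matches to that finger pattern. GAGA factor, the product of Trl, is a well studied Drosophila protein that binds GA repeats in promoters and Polycomb response elements and helps to keep them free of nucleosomes. Promoter regions just upstream of start sites are also often rich in A and T, and such stretches resist wrapping into nucleosomes. ChIP-seq reads can be recovered unevenly from DNA of different base composition, which is why G and C content is routinely looked at beside peak calls.

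The summits of the peaks found in replicate 2 alone were rich in A and T. The summit base and 50 bp to each side of it are shown for the 6 with the highest signal value on arms 2L, 3L, 3R and X whose window holds no base of an annotated untranslated region, since they display the base composition on which most results below turn. All are dm6 reference sequence on the plus strand, credited to RefSeq, and capitals mark runs of at least 6 bases of A or T. E23 lies at chr2L:3355031-3355131, in the promoter 252 bp upstream of the start site, CG31668 at chr2L:2202349-2202449, intergenic and 3767 bp downstream of a start site of that gene, and Hpf1 at chr3R:5791718-5791818, 111 bp upstream. Eno lies at chr2L:1727883-1727983, 216 bp upstream, Alp12 at chr2L:19423780-19423880, 220 bp upstream and within Pax, and Pits at chrX:12579652-12579752, in an intron of that gene.
E23: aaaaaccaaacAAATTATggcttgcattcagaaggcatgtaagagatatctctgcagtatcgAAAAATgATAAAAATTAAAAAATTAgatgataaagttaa
CG31668: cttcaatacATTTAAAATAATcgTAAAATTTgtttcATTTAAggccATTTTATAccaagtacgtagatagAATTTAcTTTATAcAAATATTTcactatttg
Hpf1: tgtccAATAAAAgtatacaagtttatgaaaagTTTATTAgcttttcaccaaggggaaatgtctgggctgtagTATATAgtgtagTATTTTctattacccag
Eno: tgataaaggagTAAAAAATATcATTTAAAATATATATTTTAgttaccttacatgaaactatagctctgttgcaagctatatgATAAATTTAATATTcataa
Alp12: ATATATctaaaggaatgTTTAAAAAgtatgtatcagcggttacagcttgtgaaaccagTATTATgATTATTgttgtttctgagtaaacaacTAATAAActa
Pits: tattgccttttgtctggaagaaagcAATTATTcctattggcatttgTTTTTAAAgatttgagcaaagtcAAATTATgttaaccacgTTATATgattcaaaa
G and C made up 26.7% of the E23 window, 22.8% of the CG31668 window, 32.7% of the Hpf1 window, 20.8% of the Eno window, 27.7% of the Alp12 window and 28.7% of the Pits window. The longest run of A and T was 19 bases at Eno and 18 at E23, and 7 at Hpf1. None of the 6 holds the word GAGAG on either strand.

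A small number of the 731 held the GAGA element GAGAGAG, and the 4 strongest of these are shown for contrast, under the same exclusion, with capitals marking every GAGAG and its reverse complement CTCTC. The window nearest to lncRNA:CR43859 is chr2L:11207032-11207132, that nearest to lncRNA:CR45609 is chrX:18312741-18312841, that in the promoter of pnt is chr3R:23295464-23295564, and that nearest to mir-4962 is chrX:3777417-3777517.
lncRNA:CR43859: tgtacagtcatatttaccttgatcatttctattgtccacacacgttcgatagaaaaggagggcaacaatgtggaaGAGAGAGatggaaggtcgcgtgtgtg
lncRNA:CR45609: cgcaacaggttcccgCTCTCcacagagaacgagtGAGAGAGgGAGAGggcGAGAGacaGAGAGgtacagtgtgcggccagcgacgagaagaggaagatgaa
pnt: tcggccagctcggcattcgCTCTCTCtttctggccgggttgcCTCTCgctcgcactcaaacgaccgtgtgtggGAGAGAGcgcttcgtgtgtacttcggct
mir-4962: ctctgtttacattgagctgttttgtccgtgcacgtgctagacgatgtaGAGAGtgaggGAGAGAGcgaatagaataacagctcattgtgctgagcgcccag
The 3 strongest shared peaks under that exclusion are given in the same way, a choice made after the values had been seen. They are at chr3R:16847363-16847463 nearest to a start site of lncRNA:iab8, at chr3R:16869460-16869560 nearest to mir-iab-8 and at chr3L:6742386-6742486 downstream of a start site of dikar.
lncRNA:iab8: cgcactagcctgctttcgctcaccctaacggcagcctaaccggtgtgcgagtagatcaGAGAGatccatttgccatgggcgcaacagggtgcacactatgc
mir-iab-8: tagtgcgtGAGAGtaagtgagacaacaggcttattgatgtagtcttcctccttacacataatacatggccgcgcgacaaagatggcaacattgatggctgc
dikar: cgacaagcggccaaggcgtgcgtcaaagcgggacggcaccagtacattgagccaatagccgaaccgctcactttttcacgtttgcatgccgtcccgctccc
The pnt window was 61.4% G and C, the lncRNA:CR45609 window 58.4%, the mir-4962 window 49.5% and the lncRNA:CR43859 window 43.6%. The shared windows at lncRNA:iab8, mir-iab-8 and dikar were 57.4%, 46.5% and 60.4%.

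Base composition, which the rule did not use, differed between the 731 peaks and both the shared peaks and the peaks found in replicate 1 alone. The median G and C content of their summit windows (50 bp to each side) was 32.7% (quartiles 26.7 and 40.6), against 47.5% (33.7 and 54.5) in the 1397 shared peaks of replicate 2 and 47.5% (41.6 and 53.5) in the 627 peaks found in replicate 1 alone. Windows tiled over the 6 arms had a median of 42.6%, so the replicate 2-only summits lay below the genome and the other sets above it. Of the 731, 438 were under 35% G and C, a share of 59.9% (56.3 to 63.4), against 26.6% (24.4 to 29.0) of shared peaks and 12.4% (10.1 to 15.3) of replicate 1-only peaks. None of these 3 intervals overlaps another. The difference was local to the summit. In flanking windows 500 bp to each side the median was 41.6% for the replicate 2-only peaks, 40.6% for shared peaks and 41.6% for replicate 1-only peaks. In windows reaching 150 bp to each side it was 37.9%, against 44.2% in each of the other sets.

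**Figure D1:**
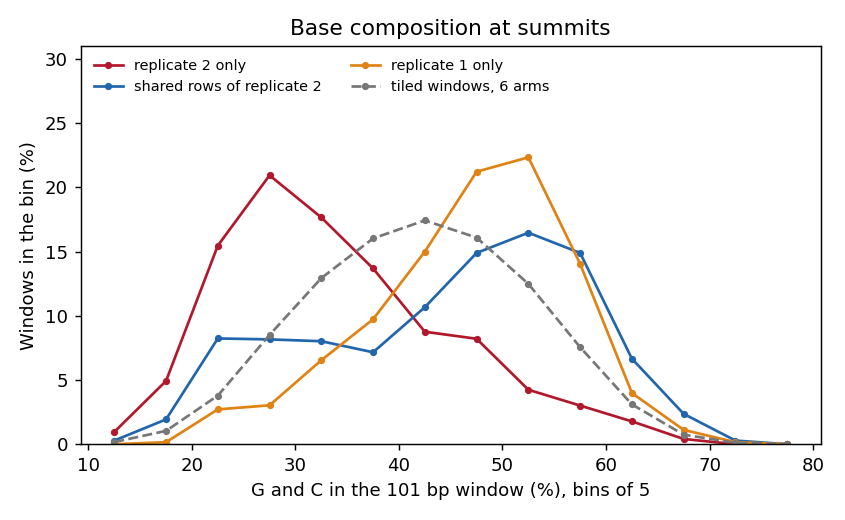
G and C content of summit windows (x axis, percent, bins of 5) and share of each set's windows in the bin (y axis, percent), for 731 peaks of replicate 2 only, 1397 shared peaks, 627 peaks of replicate 1 only and windows tiled over the 6 arms. The replicate 2-only curve has its maximum below 35% and the replicate 1-only curve above 45%, and the shared peaks spread over both ranges.

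The low G and C content was seen near start sites and away from them. Windows centred 150 bp upstream of protein-coding start sites had a median of 36.6% G and C over 19253 windows. Replicate 2-only peaks within 500 bp of a transcription start site (TSS) had a median of 31.7% (n = 346) and those farther away 32.7% (n = 385). The corresponding medians were 45.5% and 48.5% for shared peaks, and 47.5% and 48.0% for replicate 1-only peaks. The same order was seen on each of the 5 arms that held any of the 731, with medians from 30.7% on 3L to 32.7% on 2L, 3R and X, against 44.6% to 49.5% for shared peaks. Bases that the reference marks as masked filled 50% or more of the window at 14.0% of the 731 (11.6 to 16.7), against 7.80% of shared peaks (6.51 to 9.33) and 4.94% of replicate 1-only peaks (3.50 to 6.93).

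Read from the other side, the share of replicate 2 peaks without a counterpart in the thresholded list of replicate 1 was lower at higher G and C content. Among peaks under 25% G and C 51.7% (46.0 to 57.2) were in replicate 2 alone, and the share was 57.3% from 25 to 30%, 53.5% from 30 to 35% and 50% from 35 to 40%. It was 30.05% from 40 to 45%, 22.4% from 45 to 50% and 10.8% (8.65 to 13.5) at 50% or more. Among replicate 1 peaks the share absent from replicate 2 was lowest at the A and T-rich end, with 15% (9.70 to 22.5) under 25% and 13.9% from 25 to 30%. It was highest from 40 to 45%, at 42.9% (36.5 to 49.5), and 30.2% (27.2 to 33.4) at 50% or more.

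**Figure D2:**
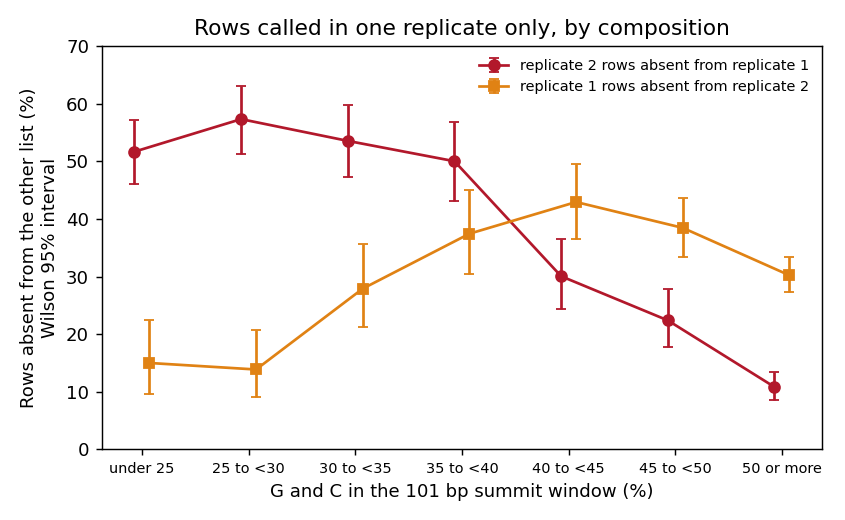
Share of each replicate's peaks that were absent from the other replicate's thresholded list (y axis, percent, bars are Wilson 95% intervals) by G and C content of the summit window (x axis, percent). The replicate 2 share is between 51.7% and 57.3% below 35% G and C and 10.8% at 50% or more, and the replicate 1 share is 15% under 25% and 42.9% from 40 to 45%.

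The shared peaks, none of which belongs to the 731, showed the same tilt in signal. Each shared peak was given its percentile of signal among the 1397 in replicate 2 and, from the replicate 1 row it overlapped, in replicate 1. Of the 146 shared peaks under 25% G and C, 93.2% (87.9 to 96.2) stood higher in replicate 2, as did 88.6% from 25 to 30% and 77.7% from 30 to 35%. From 35 to 40% the share was 55.0%, from 45 to 50% it was 30.3%, and of the 568 peaks at 50% or more it was 34.2% (30.4 to 38.2). Within 500 bp of a TSS the shares at these ends were 93.2% and 38.0%, and farther away 93.0% and 30.5%. Across the 1397 shared peaks Spearman's rho between G and C content and the difference in percentile was -0.47. That value is across peaks of the same 2 libraries and is a description. No value on the libraries themselves is in the lists, and the part of library base composition in the choice of the 731 was not tested. It cannot be told apart from a difference between the embryo collections.

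The signal values, which helped to decide the threshold and so the rule, are given as a description. Signal is the value of the authors' peak caller, whose scale neither the labels nor the deposited file lists name. Replicate 2-only peaks ran from 2.06 to 168, with a median of 51.1 and quartiles of 42.7 and 60.9, and shared peaks reached 2117 with quartiles of 65.3 and 206. The strongest of the 731 ranked 426 in the list. In 10 bins of rising signal over all 2128 peaks, they made up 150 of the 213 peaks in the lowest bin, 81 of 213 in the fifth, 13 of 213 in the eighth, 1 in the ninth and 0 in the highest. The 731 were also mostly of a single width, 344 bp, which 98.6% of them had against 57.3% of shared peaks. The score was taken as a scaled irreproducible discovery rate, with a highest value of 1000. It was 1000 at 68.8% of the 731 and at 92.9% of shared peaks, or 74.7% when these were so weighted. Replicate 1-only peaks had that score in their own list at 64.1%. Replicate 2 peaks were called within that replicate, so this score is no measure of agreement with replicate 1.

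**Figure D3:**
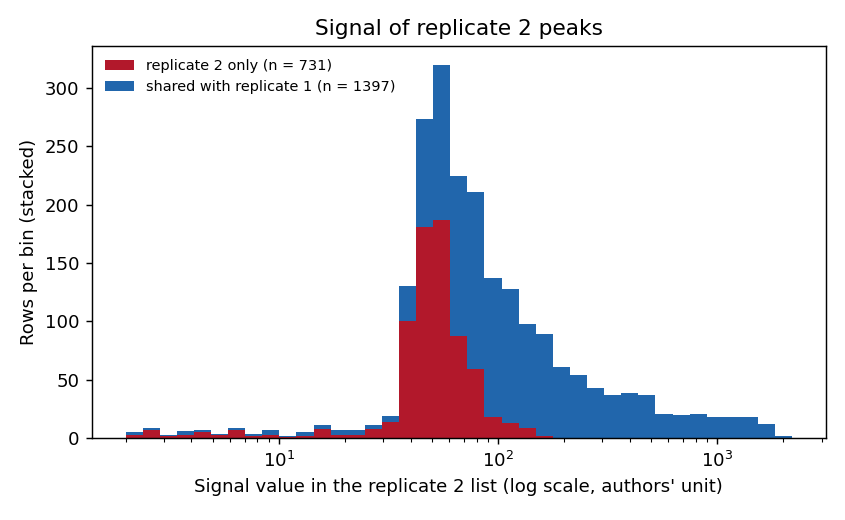
Stacked histogram of the signal value of replicate 2 peaks (x axis, log scale, in the authors' unit; y axis, peaks per bin), split into 731 peaks of replicate 2 only and 1397 shared peaks. Replicate 2-only peaks cluster around their median of 51.1 and none exceeds 168, while shared peaks extend to 2117.

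In 4 bins of rising signal, each of 532 replicate 2 peaks, the composition differed in the same direction. In the lowest bin the median G and C content was 35.6% for replicate 2-only peaks and 47.5% for shared peaks, in the second 30.7% and 44.6%, and in the third 28.7% and 41.6%. The highest bin held 3 replicate 2-only peaks. In the third bin 32.9% (27.5 to 38.9) of peaks under 35% G and C were in replicate 2 alone, against 2.13% (0.830 to 5.34) of those at 45% or more. In the lowest bin these shares were 86.7% (81.2 to 90.7) and 48.7% (41.7 to 55.7). Spearman's rho between G and C content and signal was -0.34 across the 731 and 0.23 across shared peaks. Among the shared peaks the median was 51.5% in the highest bin, so it did not move in 1 direction with signal over the 4 bins.

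A group of 35 of the 731 had signal under 10, as had 19 shared peaks. All 35 overlapped another peak of replicate 2, which 66 of the 696 with signal of 10 or more did, and 24 of the 35 carried the highest score of 1000. At sima, which encodes the alpha subunit of the fly hypoxia-inducible factor, a row of signal 3.07 lay beside one of 54.8 in the same intron, and the pair's starts were 30092861 and 30092661 on 3R. At CHES-1-like, a forkhead gene, rows of 2.78 and 49.4 overlapped in the same way. These low rows were less A and T-rich, with a median of 45.5% G and C (n = 35), and without them the median of the remaining 696 was 31.7%.

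The ranked list of replicate 1 was read at these places. In the ranked list of replicate 1, which holds peaks of any score, 698 of the 731 (95.5%, 93.7 to 96.8) overlapped at least 1 peak and 33 overlapped none. The ranked list held 84620 rows on the 6 arms, and 34.1% of windows of 344 bp tiled over them overlapped 1, while all 1397 shared peaks did so by construction. The best replicate 1 score there was 540 or more at 172 (23.5%, 20.6 to 26.7) and lower at 526, and it reached the lowest thresholded score of 830 at none. The matched replicate 1 signal had a median of 29.7 (quartiles 23.3 and 36.9) and the rank a median of 4416, from 983 to 83843. Summits lay a median of 45 bp apart between the replicates, against 16 bp for shared peaks. The median G and C content was 33.7% where the replicate 1 score was 540 or more, 31.7% where it was lower, and 32.7% at the 33 with no ranked peak. The strongest of those 33 lay 173 bp upstream of CG17574 (signal 137), 42 bp upstream of Faf2 (82.7) and 100 bp upstream of CG15771 (79.5), 3 peaks picked after their values were seen.

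The lists made from both replicates held many of the 731. The conservative list of both replicates overlapped 475 (65.0%, 61.5 to 68.4) and the other list of both replicates 641 (87.7%, 85.1 to 89.9), against 98.9% and 99.8% of shared peaks. Neither list overlapped 74 of the 731 (10.1%, 8.14 to 12.5). These lists use the same reads as the rule, so the shares describe the calling and are no independent evidence of binding. The median signal of those inside the conservative list was 53.2, and of those outside it 46.9. Their median G and C contents were 32.7% and 31.7%.

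At the edge of the rule a few bases decided membership. The 3 closest to a replicate 1 peak were those near CG17574, 6 bp away on 2R, CG31668, 22 bp away, and CG15771, 70 bp away. The 3 shared peaks with the shortest overlap lay nearest to the homeobox gene slou, with 14 shared bases, CG7567, with 15, and lncRNA:CR44868, with 17. Of the 731, 7 lay within 200 bp of a replicate 1 peak and 425 were more than 10000 bp from one, and the median gap was 13852 bp. By score the nearest misses were peaks whose best replicate 1 row scored 829, nearest to CG18508 and within an intron of the Notch receptor gene N, 828 at IP3K2, which encodes an inositol trisphosphate kinase, 827 at CG10467, 825 near CBP and 824 at Brd7-9, a bromodomain protein gene.

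Close to 50% of the replicate 2-only peaks lay near start sites. Their summits lay within 500 bp of a TSS at 346 of 731, a share of 47.3% (43.7 to 51.0), against 50.4% (47.8 to 53.0) of shared peaks and 50.2% (46.3 to 54.1) of replicate 1-only peaks, and these intervals overlap. When the shared peaks were weighted to the 4 signal bins of the 731, their share was 43.7%. The summits near a TSS were upstream of it at 77.7% (73.1 to 81.8), against 76.4% (73.1 to 79.4) of shared peaks and 62.8% (57.3 to 68.0) of replicate 1-only peaks. The fullest bin was 200 to 100 bp upstream for both the replicate 2-only peaks (113 peaks, 15.5%) and the shared peaks (238, 17.0%). For replicate 1-only peaks it was the 100 bp just upstream (128, 20.4%). Introns held 276 of the 731 summits (37.8%, 34.3 to 41.3) against 31.8% (29.4 to 34.3) of shared summits, which is 35.5% when weighted to the signal of the 731, and 11.9% against 13.0% were intergenic. Coding sequence took 6 of the summits (0.821%) and 4 were in 3' untranslated regions (0.547%).

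**Figure D4:**
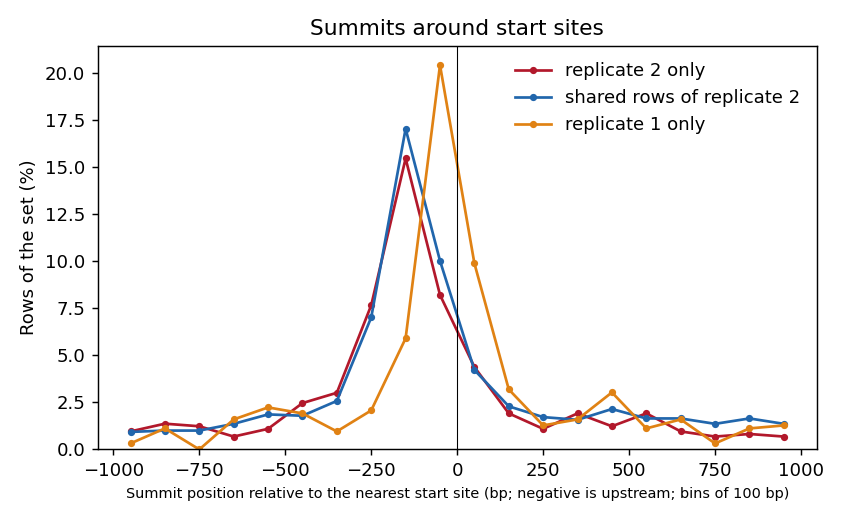
Position of summits relative to the nearest TSS (x axis, bp, negative is upstream, bins of 100 bp) as a share of all peaks of each set (y axis, percent), for replicate 2-only, shared and replicate 1-only peaks. The replicate 2-only and shared curves peak 200 to 100 bp upstream, at 15.5% and 17.0%, and the replicate 1-only curve peaks in the 100 bp just upstream, at 20.4%.

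Each arm but the smallest carried these peaks. They were 160 on 2L, 124 on 2R, 157 on 3L, 148 on 3R, 142 on X and 0 of 9 on arm 4. As a share of an arm's replicate 2 peaks they ran from 31.6% (27.5 to 36.1) on X to 38.7% (34.2 to 43.5) on 2L, and those intervals overlap. For the 9 peaks on arm 4 the interval reaches 29.9%. Most had no other of the 731 nearby: grouping their summits less than 10000 bp apart gave 497 single peaks, 93 pairs, 12 groups of 3 and 3 groups of 4. Counting replicate 2 peaks of either kind, another lay within 10000 bp of 52.8% of the 731. That share was 54.2% for shared peaks off arm 4. A shared peak lay within 10000 bp of 33.7% of the 731, and another shared peak lay within that distance of 44.5% of 1388 shared peaks off arm 4.

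GA repeats were rarer at these summits than at the shared ones. GAGAGAG occurred within 50 bp of the summit at 20 of the 731, a share of 2.74% (1.78 to 4.19), near the 2.26% (1.61 to 3.15) of their own flanks and above the 1.24% of tiled windows. Among shared peaks it occurred at 14.8% (13.1 to 16.8) and among replicate 1-only peaks at 13.2% (10.8 to 16.1). The gap was present in each of the 3 lower bins of signal, where the shares were 2.49% against 17.0% in the lowest, 3.72% against 13.7% in the second and 1.02% against 12.9% in the third. Windows were also split by composition. In windows of 45% G and C or more the element was at 14 of 129 replicate 2-only peaks (10.9%, 6.58 to 17.4) and at 186 of 776 shared peaks (24.0%, 21.1 to 27.1). In windows from 35% to under 45% it was at 3.66% (1.69 to 7.75) and 8.03% (5.26 to 12.1), whose intervals overlap, and under 35% at 0 of 438 and 1 of 372. Among replicate 1-only peaks it was at 17.3% (13.8 to 21.3) at 45% or more and at 9.03% (5.46 to 14.6) from 35% to under 45%. These intervals overlap those of the 731 in the same classes. The shorter word GAGAG occurred at 12.2% (10 to 14.7) of the 731, at 37.3% (34.8 to 39.9) of shared peaks and at 11.4% of tiled windows. In windows of 45% or more it was at 29.5% (22.3 to 37.8) of replicate 2-only and 56.4% (52.9 to 59.9) of shared peaks. Replicate 1-only peaks in that class had it at 42.4% (37.6 to 47.3), an interval that overlaps that of the replicate 2-only peaks.

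Some other words were rarer at the 731 and others were not. GCCAT, the core of the site of the Polycomb recruiter Pho, was at 12.3% (10.1 to 14.9) of the 731, against 25.2% (23.0 to 27.5) of shared peaks and 19.7% of tiled windows. At 45% G and C or more its shares were 17.8% (12.2 to 25.3) and 32.0% (28.8 to 35.3). The CTCF core, searched as AGGTGGCG, AGATGGCG, AGAGGGCG or AGGGGGCG, was at 5 of the 731 (0.684%, 0.293 to 1.59) and at 72 shared peaks (5.15%, 4.11 to 6.44). At 45% or more these shares were 3.88% (1.67 to 8.75) and 8.51% (6.74 to 10.7), whose intervals overlap. The CA repeat CACACACA was at 1.78% (1.04 to 3.02) against 4.94% (3.92 to 6.20), and at 2.09% of tiled windows. At 45% G and C or more its shares were 6.20% (3.18 to 11.8) and 8.12% (6.40 to 10.3). From 35% to under 45% they were 1.83% (0.624 to 5.24) and 2.41% (1.11 to 5.16), and the intervals overlap in both classes. The pyrimidine initiator, found at start sites of ribosomal protein genes, was at 13.7% (11.4 to 16.4) against 20.04% (18.0 to 22.2) of shared and 10.5% of tiled windows. At 45% G and C or more its shares were 15.5% (10.3 to 22.7) and 25% (22.1 to 28.2). From 35% to under 45% they were 13.4% (9.03 to 19.5) and 20.5% (15.9 to 25.9). Under 35% they were 13.2% (10.4 to 16.7) and 9.41% (6.84 to 12.8), and the intervals overlap in each class. The BEAF-32 core CGATA, of an insulator protein, was at 12.2% (10 to 14.7) against 14.3% (12.6 to 16.3), and the initiator, TCAGTT or TCAGTC, at 7.25% (5.59 to 9.36) against 7.73% (6.44 to 9.25), with overlapping intervals.

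Several words rich in A and T were more frequent than at shared peaks. The homeodomain core, TAATTA or TAATTG, was at 20.8% (18.0 to 23.9) of the 731, against 11.0% (9.42 to 12.7) of shared peaks and 14.8% of tiled windows. TATAAA, the TATA box word, was at 20.7% (17.9 to 23.7) against 12.3% (10.7 to 14.1), and the GATA site, AGATAA or TGATAA, at 17.2% (14.7 to 20.1) against 10.4% (8.89 to 12.1). In the windows 150 bp upstream of protein-coding start sites these words were at 19.0%, 18.7% and 15.6%. Among windows under 35% G and C the intervals of both sets overlapped for each of these words. The homeodomain core was at 27.2% (23.2 to 31.5) of replicate 2-only and 28.2% (23.9 to 33.0) of shared peaks, TATAAA at 29.9% (25.8 to 34.4) and 31.2% (26.7 to 36.1), and the GATA sites at 21.2% (17.7 to 25.3) and 19.4% (15.7 to 23.7). The most frequent words of 8 bp at the 731 summits, both strands joined, were AAAAAAAA at 65 peaks (8.89%), AAAATAAA and AAATAAAA at 59 each (8.07%), AAATTAAA at 57 (7.80%) and AAAAAAAT at 55 (7.52%). At shared peaks these were at 4.15%, 3.87%, 3.08%, 3.72% and 3.58%. All words were searched on both strands, GAGAGAG contains GAGAG, and a match is a run of letters and not a shown binding site.

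**Figure D5:**
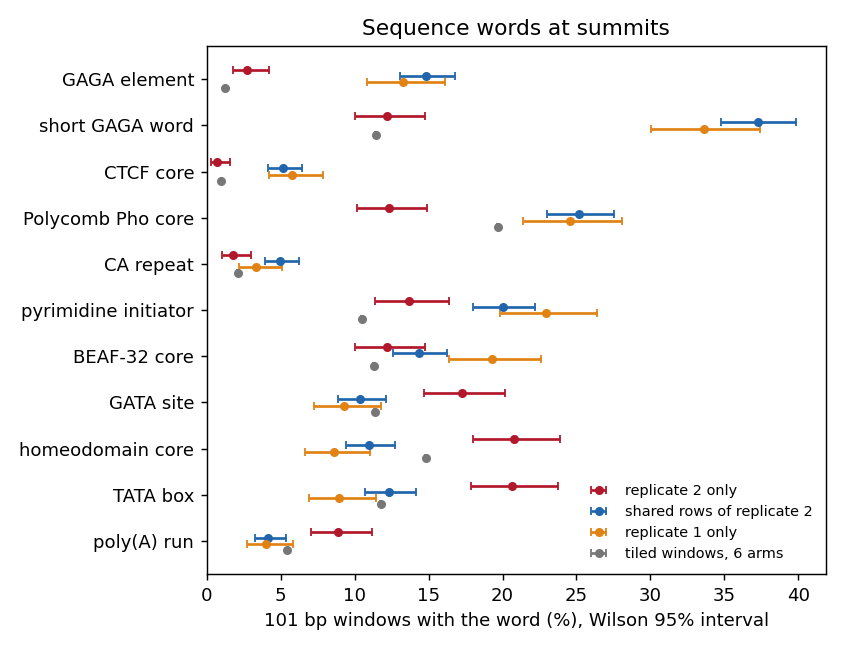
Share of summit windows that hold each word on either strand (x axis, percent, bars are Wilson 95% intervals), for replicate 2-only, shared and replicate 1-only peaks and for windows tiled over the 6 arms. The GAGA element is at 2.74% of replicate 2-only and 14.8% of shared peaks, and the homeodomain core at 20.8% and 11.0%.

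Of the 20 strongest replicate 2-only peaks, 13 had their summit within 500 bp of a start site, at genes of varied roles. The first, E23, had signal 168, at the promoter of an ecdysone-inducible ABC transporter gene, where the best replicate 1 row scored 788 and had signal 62.4. CG31668 followed with 164, and Hpf1, the counterpart of a human factor that directs ADP-ribosylation to histones, had 139. CG17574 had 137 and Eno, the gene of the glycolytic enzyme enolase, had 132. The peak 137 bp upstream of chn, which encodes the zinc finger repressor Charlatan, had 131, and that upstream of the alkaline phosphatase gene Alp12 had 130. Pits had 128 in its intron and C1GalTA, a galactosyltransferase gene, 128 at 127 bp upstream.

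The rest of the 20 ran from 126 down to 110. CG42327 had 126, and PIG-G, a gene of the GPI anchor pathway, had 125 at 147 bp upstream. The stress-activated kinase gene p38a had 124 at 52 bp upstream, Diap1, which encodes an inhibitor of apoptosis, had 118 in its intron 645 bp downstream, and the phosphatase gene Ptpmeg2 had 117. CG10479 had 114 and lncRNA:CR45352, 2071 bp from NimC3 as the nearest protein-coding gene, had 113. The peak nearest to CG18371, within an intron of the Notch coactivator gene mam, had 113, CG13898 had 112, tRNA:Lys-TTT-1-1, within an intron of the tyrosine kinase gene Btk, had 111, and CG9328 had 110. Their G and C content ran from 17.8% at PIG-G to 40.6% at CG13898. All 20 overlapped the conservative list of both replicates.

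Several genes were nearest to more than 1 of these peaks. The 731 had 622 nearest genes, 88 of which were nearest to at least 2. Overlapping rows were counted separately here, and 99 of the 731 overlapped another of the 731. Such pairs include the rows of 54.8 and 3.07 at sima and those of 49.4 and 2.78 at CHES-1-like. The same count was not made for shared peaks. sima had 5, at signals 67.1, 54.8, 46.3, 17.2 and 3.07, with 1 of them 171 bp upstream of a start site and the others in introns. sbb, which encodes the nuclear protein Scribbler, had 4 within its introns, at 77.9, 74.96, 56.6 and 7.97. CHES-1-like had 4, at 60.7, 49.4, 43.2 and 2.78, and shep, which encodes an RNA-binding protein, had 4, at 57.9, 47.4, 46.4 and 42.7.

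By gene, 394 of 13945 protein-coding genes had a replicate 2-only summit within 500 bp of a start site (2.83%), and 770 (5.52%) had a shared one. A replicate 1-only summit was there at 367 (2.63%). Of the 394, 370 had no shared peak there and 361 had no peak of the replicate 1 list. Over all protein-coding genes only 5.52% had a shared peak there and 7.92% a peak of the replicate 1 list. Lacking one was therefore common to most genes and is no trait of the 394. Gene lists were read against these backgrounds as counts, without a test. Of 65 genes of the homeobox, Pax, Sox, T-box, forkhead and POU families, 1 had a replicate 2-only summit and 43 a shared one. That gene was nub, a POU factor gene, with signal 55.3 at 295 bp upstream and a best replicate 1 score of 822. Of 40 Hox and embryonic patterning genes, 1 had a replicate 2-only summit and 22 a shared one. It was the pair-rule gene hairy, listed as hry, with signal 44.5 at 79 bp upstream, a window of 59.4% G and C and a replicate 1 score of 739. The shares with a replicate 2-only summit, 1.54% and 2.50%, lay at or below the background of 2.83%, while those with a shared summit, 66.2% and 55%, lay above the background of 5.52%.

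Of 50 signalling genes 2 (4%) had a replicate 2-only and 6 (12%) a shared summit, against backgrounds of 2.83% and 5.52%. There, pnt, an ETS factor gene of the EGF receptor pathway, had 59.0, and Stat92E, the JAK-STAT transcription factor gene, had 46.4. Of 24 neural and glial genes 1 (4.17%) had a replicate 2-only and 5 (20.8%) a shared summit. The replicate 2-only one was at numb, the gene of an inhibitor of Notch, with 94.98 at 201 bp upstream. The gene numb also had a peak of the replicate 1 list within 500 bp of a start site. No gene of the muscle list (23 genes), the midgut, fat body, blood and trachea list (19) or the germ line list (12) had a replicate 2-only summit. Shared summits were at 6 (26.1%), 7 (36.8%) and 2 (16.7%) of them. At a background of 2.83% lists of this size can hold no such gene, so these counts of 0 are no trait of the 731. Of 15 genes of the Enhancer of split and Bearded complexes 1 (6.67%) had a replicate 2-only summit, E(spl)m2-BFM, with 45.8 at 499 bp upstream, just within the distance used. Of 25 axon guidance genes 1 (4%) did, the semaphorin gene Sema1a with 49.4, from the same row that also reached tRNA:Asp-GTC-1-4 and tRNA:Asp-GTC-1-5. Shared summits were at 1 (6.67%) and 2 (8%) genes of these lists.

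Chromatin and hormone-response genes followed, read against the protein-coding backgrounds of 2.83% for replicate 2-only and 5.52% for shared summits. Of 25 Polycomb and trithorax group genes, E(z), the histone H3 lysine methyltransferase gene, had 68.5 at 120 bp downstream, in a window of 10.9% G and C, equal to the lowest of the 731. Of 19 insulator and architectural protein genes, row had 74.8 and M1BP, the gene of a promoter-binding zinc finger protein, had 52.6, in windows of 24.8% and 13.9%. Of 23 ecdysone response and nuclear receptor genes, Eip75B had 80.4 at 49 bp downstream, eg had 50.2 and Hnf4 had 41.0, and Hnf4 also had a shared peak of 89.7. Replicate 2-only summits were thus at 1 (4%), 2 (10.5%) and 3 (13.0%) genes of these lists. Shared summits were at 7 (28%), 6 (31.6%) and 7 (30.4%). Of 22 heat shock protein genes 1 (4.55%) had a replicate 2-only and 5 (22.7%) a shared summit. The replicate 2-only one was at the small heat shock gene Hsp26, with 44.8 at 117 bp upstream.

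Housekeeping lists and the remaining protein-coding lists were mixed. The backgrounds over protein-coding genes were 2.83% for replicate 2-only, 5.52% for shared and 2.63% for replicate 1-only summits. Of 30 cytoskeleton, adhesion and polarity genes, 4 had a replicate 2-only summit (13.3%), 2 a shared one (6.67%) and 5 a replicate 1-only one (16.7%). The strongest 3 were the polarity gene par-6 with 84.2, the myosin regulatory light chain gene sqh with 73.9 and the moesin gene Moe with 63.3. Of 86 cytoplasmic ribosomal protein genes 2 (2.33%) had a replicate 2-only summit, RpL11 with 57.3 and RpL19 with 49.96. Of the same 86, 17 (19.8%) had a shared and 30 (34.9%) a replicate 1-only summit. Of 51 translation factor genes 1 (1.96%) had a replicate 2-only summit, eEF1alpha1 with 39.97, from a row that also reached snoRNA:Me28S-A1322. Shared summits were at 6 (11.8%) and replicate 1-only summits at 8 (15.7%). The gene eEF1alpha1 also had a peak of the replicate 1 list within 500 bp of a start site. Of 30 cell cycle and replication genes 1 (3.33%) had a replicate 2-only summit, CycE, which encodes cyclin E, with 49.0. Of 48 proteasome genes Rpn1 did (2.08%), with 41.3. No mitochondrial ribosomal protein gene of 73 did, while 8 had a shared peak. None of the 179 chemosensory receptor, 136 cuticle protein, 111 histone, 81 cytochrome P450 and 51 odorant-binding protein genes did. Shared peaks were also absent from those lists, apart from 1 cytochrome P450 gene, and replicate 1-only peaks were at 0 of their genes.

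Noncoding genes had few summits of any set. Of 2780 annotated noncoding RNA genes 29 (1.04%) had a replicate 2-only summit, 85 (3.06%) a shared one and 33 (1.19%) a replicate 1-only one. Over all 17683 genes these shares were 2.41%, 4.90% and 2.32%. The low share was therefore common to each set and is no trait of the replicate 2-only peaks. The strongest replicate 2-only summits were at lncRNA:CR45352 with 113, lncRNA:CR44867 with 102 and lncRNA:CR44676 with 90.6. Among these, lncRNA:CR44867 also had a peak of the replicate 1 list within 500 bp of a start site. Of 290 tRNA genes 3 (1.03%) had a replicate 2-only summit, led by tRNA:Gln-TTG-2-1 with 52.8, of 269 snoRNA genes 1 (0.372%) and of 32 snRNA genes 0. Shared summits were at 3 (1.03%), 6 (2.23%) and 1 (3.1%) of these genes. Of 260 miRNA genes 1 (0.385%) had a replicate 2-only and 7 (2.69%) a shared summit. The replicate 2-only one was at mir-4962, with 54.9, which lies within the kinase gene Tlk.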

How the data were processed

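Peak lists from 2 ChIP-seq samples of 1 group, biological replicates 1 and 2 per the labels, were analysed in dm6 coordinates. The labels do not say how the embryo collections or libraries differed, so differences between the replicates may be technical. Column 5 of the deposited lists is a score of at most 1000. It was taken as a scaled irreproducible discovery rate, the measure named in the deposited file lists, and the lowest thresholded score was 830. Column 7 is the signal value of the authors' peak caller, and column 10 of the deposited lists is the offset of the summit from the row start. Peaks were called per replicate for the replicate lists, per the deposited file lists. The names and versions of the aligner and peak caller were not given in the sources used here. A further 32 columns that hold values of single inputs of the ranked lists were not used.

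Rows were compared with a minimum overlap of 1 bp. Gene models were those of Ensembl release 115, and bases were read from the RefSeq FASTA of that assembly after checking that no row ran past an arm end. With transposable element insertions set aside, 17683 genes were used, including 13945 protein-coding genes. Start sites of all annotated transcripts were used, and classes followed the order promoter (within 500 bp), 5' and 3' untranslated regions, coding sequence, any other exon, intron, intergenic. Base composition and words were read within 50 bp of each summit, in flanks centred 500 bp away and in 1323188 tiled windows of the same length. No test was made, since 1 group of 2 samples allows none, and shares carry Wilson 95% intervals. Depth is unknown.

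Members and lists were chosen with earlier results of these data known. Named are the 20 members of highest signal, the up to 3 strongest genes of each list, the 3 peaks on either side of the overlap rule, the 5 members with the highest replicate 1 score and the 5 most frequent 8 bp words. Of 421 listed symbols 7 matched no gene. Alternatives covered the overlap rule, the distance to start sites, the window, the signal and the pooled list. Overlap, distance and word counting were tested on simulated data. Python 3.11.15, pandas 2.3.3, numpy 2.4.6, scipy 1.17.1, biopython 1.88 and matplotlib 3.10.9 were used.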

Additional observations from a re-analysis of the deposited data

How the results depend on the processing

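The number of peaks in replicate 2 alone was 731, and 889 when a peak counted as shared only with at least 50% of it covered, 807 with no replicate 1 summit within 100 bp, 724 with no replicate 1 row within 200 bp and 559 with no ranked replicate 1 row of score 540 or more. The share overlapping any ranked replicate 1 row, 95.5%, was 86.7% with 50% of the peak covered and 97.8% for the 366 of highest signal. The share in the conservative list, 65.0%, was 87.7% in the other list and 74.6% for those 366. The share within 500 bp of a TSS, 47.3%, was 29.96% within 200 bp and 57.7% within 1000 bp, and that of shared peaks, 50.4%, was 43.7% when weighted to the signal of the 731. GAGAGAG, at 2.74%, was at 6.57% within 100 bp, and GAGAG was at 12.2%. The median signal was 0.496 of that of shared peaks, 0.437 of it within 500 bp of a TSS and 0.558 farther away. The median G and C content, 32.7%, was 37.9% within 150 bp of the summit and 29.7% for those 366. The base composition settings, and those without peaks of signal under 10, were chosen after seeing the data. In all, 20 alternative values, the counts of peaks above among them, moved by less than their intervals or, for counts, by under 1.5 times. The remaining 13 moved by more.

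No paired analysis was possible because both samples are of 1 group. Leaving out a replicate was not possible either, since the rule needs both lists. The lists hold no read counts, and intervals cover counting error over peaks that are partly neighbours.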
